A study of Mus musculus with 14 samples.

Results

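The genes described here carry a cell through mitosis and build its spindle. The list of 48 was set by name with no threshold on a measured level, though earlier results of these data were known when it was made. A gene was represented by the probeset that named it alone and had the highest mean over all 14 arrays. Of the 48, 45 had such a probeset and 29 of those were bright enough to be tested, out of 12393 genes represented and 12701 probesets tested. No single-gene probeset represented Ccnb1, Cdca8 or Espl1.

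RNA came from mouse tumours, with 1 array per mouse by the series' design. The 7 control arrays carry the genotype label control, and the 7 others the label Hif2alpha deficient, called Hif 2alpha Knockdown in their titles. HIF-2α, the product of Epas1, is a transcription factor that oxygen destabilises. All mice in both groups were of a mixed 129 SvJ/C57Bl6 background. The organ, the age of the mice, the means by which HIF-2α was removed and any allele or agent that started the tumours are not stated in the sources used here. Markers of alveolar type II cells were read in every array of both groups, with Sftpc (surfactant protein C) at 13.85 ± 0.06 in controls and 13.89 ± 0.15 in the deficient group (log2, SD, n = 7 each).

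When a cell enters mitosis, the kinase CDK1 with its cyclins drives chromosome condensation and spindle assembly. The spindle checkpoint holds the anaphase-promoting complex in check until every kinetochore is attached. That complex, with its activator CDC20 and the ubiquitin-conjugating enzyme UBE2C, then has securin and cyclin B destroyed, the sister chromatids part, and a ring of actin and myosin divides the cell. Most of these genes are transcribed only late in the cell cycle. In their promoters the DREAM complex keeps them silent in resting cells, and B-MYB and FOXM1 activate them in cycling cells, through a short element called the cell cycle genes homology region (CHR), often beside CCAAT boxes bound by NF-Y. In tumours their summed level is commonly read as a sign of how many cells are dividing. In RNA from whole tumours, fewer dividing cells and less of a transcript per dividing cell cannot be told apart.

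The promoters show what these genes share in sequence. The 120 bases before the RefSeq start site (build GRCm38.p6) are printed 5′ to 3′ on the gene's own strand for Cdk1 (chr10:69352913-69353032, minus strand), Cdc20 (chr4:118437344-118437463, minus), Ube2c (chr2:164769809-164769928, plus), Top2a (chr11:99024190-99024309, minus) and Cks1b (chr3:89418292-89418411, minus). They were chosen as tested members with both motifs. Haus6 (chr4:86612056-86612175, minus) is shown beside them because its array pattern stood apart. Capitals mark a CHR (TTTGAA, or TTCAAA where it lies on the other strand) and a CCAAT box (CCAAT, or ATTGG on the other strand).
Cdk1: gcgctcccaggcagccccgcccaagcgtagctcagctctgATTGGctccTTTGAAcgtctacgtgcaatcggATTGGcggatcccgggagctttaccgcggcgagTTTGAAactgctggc
Cdc20: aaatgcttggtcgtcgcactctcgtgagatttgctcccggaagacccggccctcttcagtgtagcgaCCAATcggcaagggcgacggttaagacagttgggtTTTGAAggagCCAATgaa
Ube2c: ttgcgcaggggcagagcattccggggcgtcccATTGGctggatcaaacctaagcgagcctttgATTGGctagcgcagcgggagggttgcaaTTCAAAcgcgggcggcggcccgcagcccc
Top2a: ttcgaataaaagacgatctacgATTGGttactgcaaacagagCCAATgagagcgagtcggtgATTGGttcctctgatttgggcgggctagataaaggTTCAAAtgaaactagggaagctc
Cks1b: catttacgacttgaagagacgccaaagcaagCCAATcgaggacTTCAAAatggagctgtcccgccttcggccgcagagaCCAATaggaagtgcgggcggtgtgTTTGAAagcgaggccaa
Haus6: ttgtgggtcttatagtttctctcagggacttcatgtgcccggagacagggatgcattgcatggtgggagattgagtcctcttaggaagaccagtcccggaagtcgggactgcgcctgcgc

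The first 5 windows each hold at least 1 CHR close to the start and 2 or 3 CCAAT boxes, while the printed Haus6 window holds neither motif. The 300-base Haus6 window counted below does hold a CCAAT box, at base -141 from the start site, but no CHR. The last bases of the Top2a and Haus6 windows lie inside the annotated gene, whose outermost start is a little further upstream. RefSeq promoter windows of 300 bases (250 before to 50 after a start site) were found for 38 of the 45 measured members. A CHR on either strand lay in 29 of the 38 (76.3%), against 5466 of all 27025 genes with a window (20.2%). A CCAAT box lay in 30 (78.9%), against 41.1% of all genes. Both together lay in 26 (68.4%), against 7.97%. A CHR within 50 bases of the start was found for 26 members (68.4%), against 6.04% of all genes. The letters GGCGGGA, a core read by E2F factors, lay in 10 members (26.3%), against 12.7%. Motifs were counted separately, so that matches sharing a letter count for both, and a match is a string of letters, not a measured binding site. The 9 members with no CHR in the window were Birc5, Bub1, Cenpe, Cks2, Haus6, Mad2l1, Nuf2, Nusap1 and Pttg1.

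**Figure D1:**
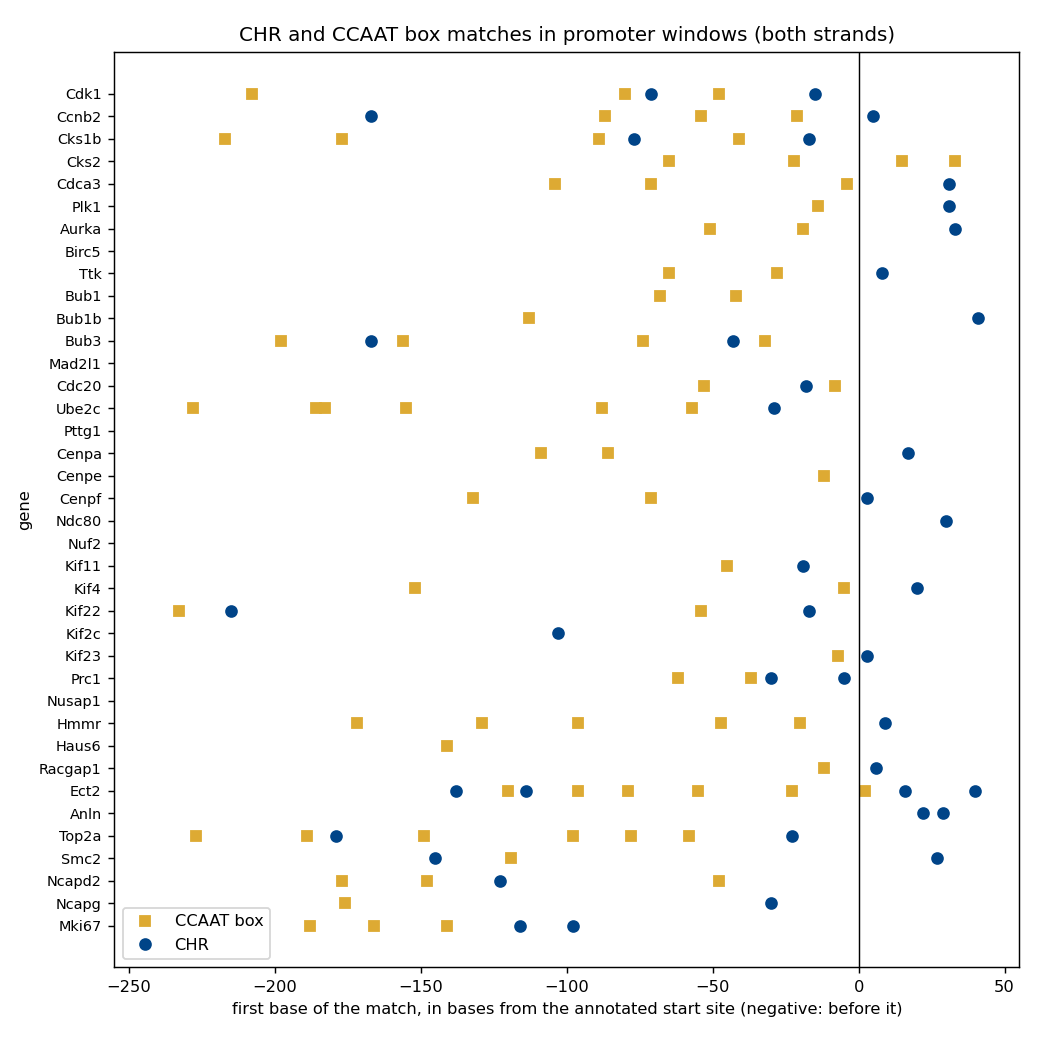
Position of each CHR (circles) and CCAAT box (squares) relative to the RefSeq start site (x axis, bases) in the promoter windows of the 38 members with an entry (y axis, genes). CHR matches gather near the start site, and 26 of the 38 members have one within 50 bases of it.

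No member passed the test between the groups. Values are log2 GCRMA levels, differences are deficient minus control with the standard error (SE) of a limma fit, and p-values were adjusted by Benjamini-Hochberg over all 12701 tested probesets. At an adjusted p under 0.05, 0 of the 29 tested members were called, against 5 of all tested probesets (0.0394%). At an unadjusted p under 0.05, 2 members were higher in deficient tumours (Haus6 and Smc2, 6.9%, against 8.09% of all tested probesets) and 1 was lower (Pttg1, against 6.57%). These 3 of 29 stand against 14.7% of all tested probesets in either direction, so the share of members was no larger than the background. Where arrays sharing a leading number in the labels were treated as a random block, Haus6 alone of the 3 kept an unadjusted p under 0.05.

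The members leaned to 1 side all the same. Means were higher in deficient tumours for 24 of 29 (82.8%, against 52.6% of all tested probesets), with a median difference of 0.26 against 0.02 for all. The 5 with lower means were Cdk1 (0.00 once arrays were centred on their medians), Cdca3, Pttg1, Top2a and Mki67. Differences ran from -0.28 (Pttg1) to 0.77 (Haus6), and the 95% interval included 0 for 26 of 29. This lean rested in good part on 1 array. Without deficient array 4 the median was 0.09 and 17 of 29 means were higher. Without control array 4 the median was 0.35 and 25 were higher, and without both it was 0.15 and 22 were higher. Without deficient array 6 it was 0.34 and 27 were higher.

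**Figure D2:**
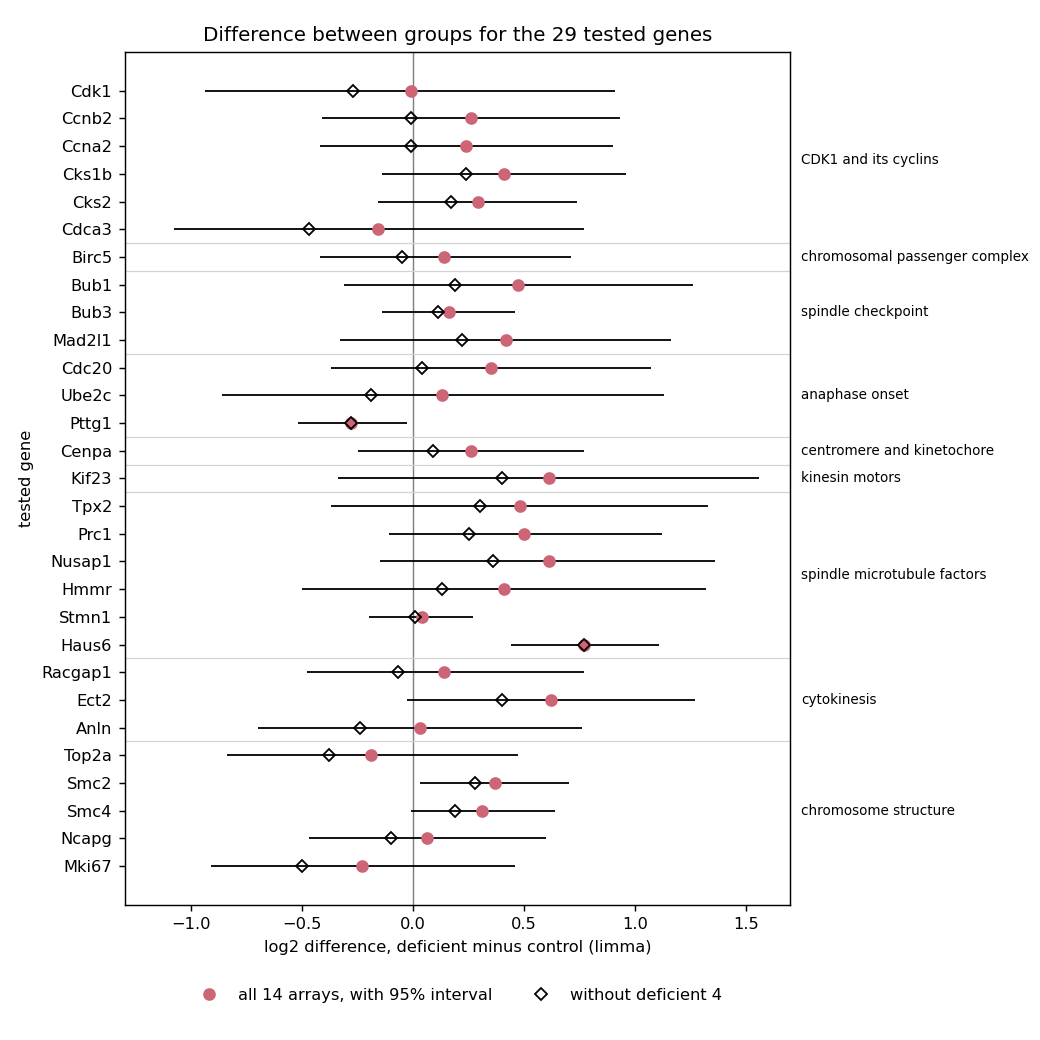
Difference of each of the 29 tested members between deficient and control tumours (x axis, log2, 95% interval of the limma fit), by role, with the difference without deficient array 4 as a second mark. Only Haus6, Smc2 and Pttg1 have intervals that do not include 0, and most second marks lie to the left of the first.

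The members varied together across single tumours. Deficient array 4 gave the highest value of all 14 arrays in 40 of the 45 measured members. Of these 40, 15 were under the filter, some near the floor even in that array, such as Kif4 at 2.30. The share over all measured genes was not counted. Of the 38 members with a promoter window, 34 were highest in that array, and 27 of these held a CHR. Of the other 4 members with a window, 2 held a CHR. A link between the motif and the array pattern was not tested. Among the tested members it was highest in 25 of 29 (86.2%), against 5.17% of all tested probesets. It stood above the median of the other deficient arrays by a median of 1.53 log2 units over the tested members, a fold of 2.89, against 0.01 for all tested probesets. Control array 4 was the highest control in 19 of 29 (65.5%, against 26.1%), by a median of 0.64 above the other controls, a fold of 1.56. Deficient array 6 was the lowest of its group in 17 of 29 (58.6%, against 8.61%).

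**Figure D3:**
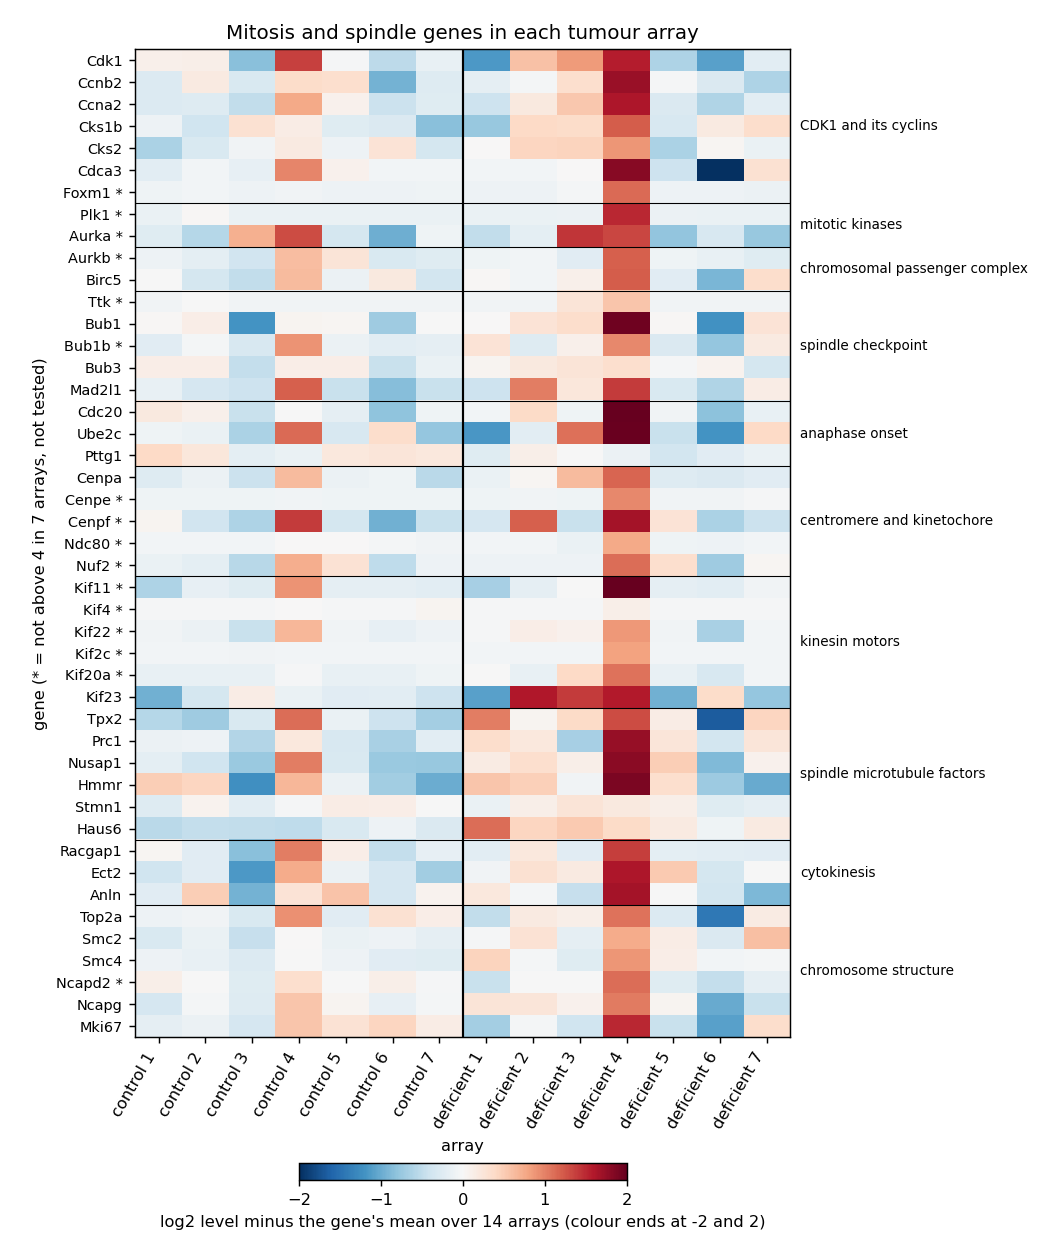
Level of each measured member in each array as the log2 value minus the member's mean over the 14 arrays (colour, which ends at -2 and 2; an asterisk marks members not tested), members in rows by role and arrays in columns by group. The column of deficient array 4 is high in nearly every row, control array 4 is high in most, and deficient array 6 is low in many.

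As a summary of each tumour, the score of an array averages, over the 29 tested members, how far each lay from its own mean of the 14 arrays. It was 1.29 in deficient array 4, 0.48 in control array 4 and -0.60 in deficient array 6. The other deficient arrays lay between -0.12 and 0.26, and the other controls between -0.47 and -0.05. The groups overlapped, with means of -0.12 ± 0.30 in controls and 0.12 ± 0.59 in the deficient group (SD, n = 7 each). The SD of single members was larger in the deficient group for 27 of 29 (93.1%, against 69.4% of all tested probesets), and for 18 of 29 without deficient array 4.

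**Figure D4:**
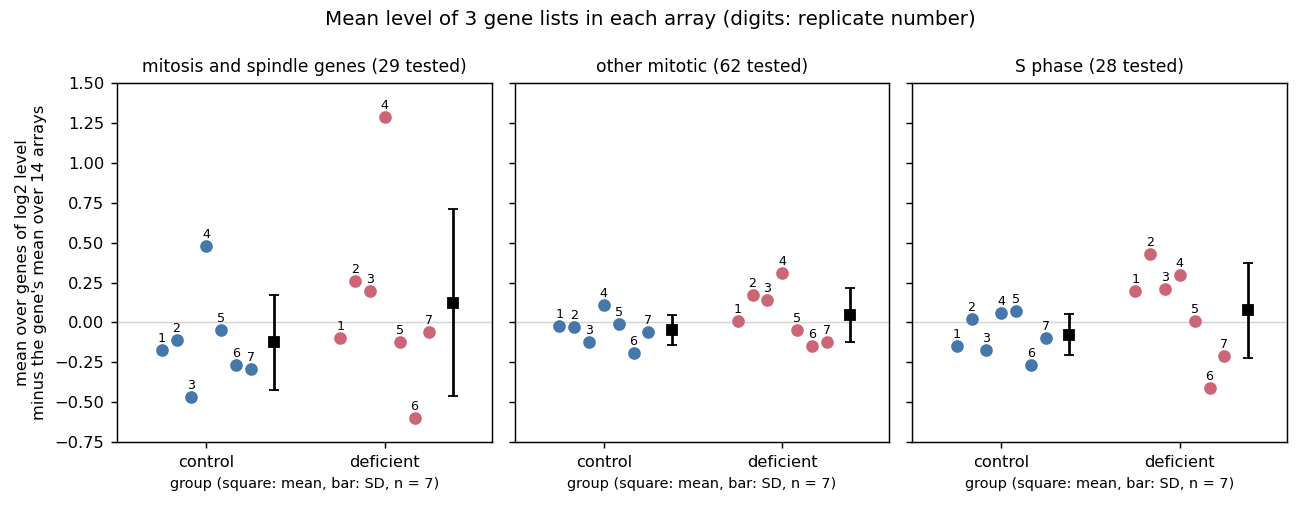
Mean centred level per array (y axis, log2) of the 29 tested members, the 62 tested genes of the other mitotic list and the 28 tested S phase genes, with control and deficient arrays as separate points. For the members deficient array 4 stands at 1.29, above all others. It is also the highest array in the other mitotic list, at 0.31, and reads 0.30 in the S phase list.

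Markers of other cell types were read in the same arrays. Of 11 lists (ciliated, club, alveolar type I and II, endothelial, fibroblast, macrophage, neutrophil, T lymphocyte, B and plasma cell, and erythroid genes), deficient array 4 had the highest summed level in 0 and ranked between 5 and 10 of 14. Control array 4 ranked between 5 and 14. Deficient array 6 ranked 13 or 14 for ciliated, alveolar type I, endothelial, fibroblast, T lymphocyte, B and plasma cell and erythroid genes.

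None of the 71 tested markers passed between the groups at an adjusted p under 0.05 by limma, and the smallest adjusted p was 0.0798. Means were lower in deficient tumours for all 4 tested ciliated markers (summed level over 6 genes 28.2 to 49.1 among controls against 18.3 to 36.0, Dnah5 near the floor throughout), for 12 of 13 club and secretory markers (127 to 164 against 115 to 134) and for all 10 endothelial markers (74.5 to 87.5 against 56.1 to 89.2). The same held for 6 of 7 alveolar type I markers (70.3 to 76.8 against 57.4 to 73.5), 8 of 9 fibroblast markers (86.3 to 96.7 against 75 to 91.8), 8 of 10 macrophage markers (92.4 to 104 against 91.5 to 101) and all 4 T lymphocyte markers (26.1 to 35.3 against 23.6 to 30.6, with Cd8a and Cd4 near the floor). Means were higher for 7 of 9 alveolar type II markers (113 to 115 against 110 to 116) and for 2 of 3 B and plasma cell markers (30.7 to 35.4 against 29.1 to 39.2, with Pax5 near the floor). Both tested neutrophil markers, S100a8 and S100a9, also had higher means (summed level over 6 genes 24.5 to 37.6 against 26.1 to 29.1). Of the untested neutrophil markers, Csf3r and Cxcr2 differed by -0.41 and -0.65, and Ngp and Camp were near the floor. The 3 erythroid markers were near the floor in every array. The part of these cell types in the members' values was not tested.

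Among CDK1, its cyclins and their partners, 6 of 8 genes were tested and all 6 were highest in deficient array 4. Cdk1, the kinase that starts mitosis, read 7.08, 7.88 and 9.28 (lowest, median, highest) in controls and 6.76, 7.70 and 9.48 in the deficient group. The difference was -0.01 (SE 0.43, 95% interval -0.94 to 0.91, limma adjusted p = 0.994). The ranges overlapped almost wholly, and array 4 was the highest in each group. Cyclin A2 (Ccna2), which acts in S phase and early mitosis, differed by 0.24 (SE 0.31, limma adjusted p = 0.761), and cyclin B2 (Ccnb2), a partner of CDK1, by 0.26 (SE 0.31, limma adjusted p = 0.738). Without deficient array 4 both differences were -0.01.

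The small CDK-binding subunits had higher deficient means with and without that array. Cks1b, which also helps the SCF ligase take up p27, read 9.71, 10.30 and 10.85 in controls and 9.79, 10.90 and 11.76 in the deficient group. The difference was 0.41 (SE 0.26, limma adjusted p = 0.478), and 0.24 without deficient array 4. In 4 deficient arrays it lay above every control, yet the lowest deficient value was next to the lowest control. Its paralog Cks2 differed by 0.29 (SE 0.21, limma adjusted p = 0.557), and by 0.17 without that array. Cdca3, a trigger of mitotic entry that is part of an SCF ligase, had a median of 6.13 in both groups, controls of 5.97 to 7.15, a low of 3.99 in deficient array 6 and its highest value in deficient array 4, with a difference of -0.16 (SE 0.43, limma adjusted p = 0.901). The 95% interval of its difference was -1.08 to 0.77. Foxm1, the transcription factor behind many of these genes, lay at the floor in controls, at no more than 2.21, and read 3.40 in deficient array 4, so it was not tested.

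Both mitotic kinases were under the filter. Plk1, which drives centrosome maturation and mitotic entry, lay between 2.56 and 2.72 in every control and read 4.20 in deficient array 4 alone among deficient arrays. Aurka, the kinase of the spindle poles, read 2.59, 3.32 and 4.87 in controls and 2.77, 3.24 and 4.99 in the deficient group. Its highest array was deficient 3, with deficient 4 at 4.90 and control 4 at 4.87. The filter asked for a value above 4 in at least 7 arrays. Aurka, Nuf2 and Ncapd2 lay just outside it, with 4 arrays above 4, and Bub1 and Tpx2 just inside, with 11.

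Of the chromosomal passenger complex, which corrects faulty attachments of chromosomes to the spindle, only survivin (Birc5) was tested. It read 7.47, 7.85 and 8.59 in controls and 7.05, 7.99 and 9.17 in the deficient group, a difference of 0.14 (SE 0.26, limma adjusted p = 0.839) and of -0.05 without deficient array 4. The groups overlapped, with array 4 the highest in both. The kinase Aurkb stayed under the filter, at no more than 3.23 in controls and 3.80 in deficient array 4.

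The spindle checkpoint genes had higher deficient means in all 3 tested members, and none passed. Bub1, a kinetochore kinase, read 3.07, 4.28 and 4.39 in controls and 3.05, 4.54 and 6.20 in the deficient group (difference 0.47, SE 0.37, limma adjusted p = 0.589). In 4 deficient arrays it lay above every control, and the lowest values of the groups were alike. Mad2l1, the MAD2 protein that sequesters CDC20, differed by 0.42 (SE 0.35, limma adjusted p = 0.622), with control array 4 at 7.55 and deficient arrays 2 and 4 at 7.38 and 7.75. Bub3, which brings BUB1 and BUBR1 to kinetochores, lay at 9.98 to 10.60 in controls against 10.11 to 10.80 (difference 0.16, SE 0.14, limma adjusted p = 0.646). Other kinases of the checkpoint were untested. Bub1b reached 4.29 in control array 4 and 4.36 in deficient array 4 and stayed at 3.67 or less elsewhere, and Ttk (MPS1) reached no more than 2.80.

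Genes of anaphase onset gave different patterns. Cdc20, activator of the anaphase-promoting complex, read 6.44, 7.17 and 7.44 in controls and 6.43, 7.18 and 9.28 in the deficient group. The difference was 0.35 (SE 0.34, 95% interval -0.37 to 1.07, limma adjusted p = 0.666) and 0.04 without deficient array 4. The medians of the groups were nearly the same, and only array 4 stood far from the rest. Ube2c, the ubiquitin-conjugating enzyme of that complex, spread over 5.79 to 7.70 among controls and 5.38 to 8.55 among deficient arrays, with a difference of 0.13 (SE 0.46, limma adjusted p = 0.925) and of -0.19 without that array.

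Securin (Pttg1), the inhibitor of separase, ran the other way. It read 11.81, 12.21 and 12.40 in controls and 11.64, 11.87 and 12.12 in the deficient group. The difference was -0.28 (SE 0.11, 95% interval -0.52 to -0.03, limma adjusted p = 0.282, two-sided exact permutation p = 0.0204), and the same -0.28 without deficient array 4. The groups overlapped, with 3 deficient arrays below every control, and the highest array was control 1. With the leading number as a block the difference was -0.26 and the limma unadjusted p 0.129, so this lower value did not hold there. Deficient array 4, at 11.88, lay inside the range of both groups. Its other tested probesets differed by -0.11 and -0.33 (SE 0.16 for the second), the same direction as the first.

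Centromere and kinetochore genes were mostly at the floor. Cenpa, the histone H3 variant that marks centromeres, was the only one tested, at 4.22, 4.63 and 5.38 in controls and 4.46, 4.62 and 5.92 in the deficient group (difference 0.26, SE 0.24, limma adjusted p = 0.655). The group medians were level, and the highest value in each group was that of array 4. The motor Cenpe and the microtubule-binding Ndc80 stayed at 2.17 or less and at 2.30 or less in controls, and read 3.21 and 3.04 in deficient array 4. Cenpf, a large kinetochore protein, reached 4.49 in control array 4 and 4.75 in deficient array 4. Nuf2, partner of NDC80 in the outer kinetochore, ranged from 3.22 to 4.50 and from 3.06 to 4.88.

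Only 1 of the 6 kinesin motors was tested. Kif23 (MKLP1), which bundles microtubules of the central spindle, read 6.06, 6.79 and 7.17 in controls and 5.93, 7.38 and 8.62 in the deficient group (difference 0.61, SE 0.45, 95% interval -0.34 to 1.56, limma adjusted p = 0.561). Its deficient arrays lay in separate ranges: arrays 2, 3 and 4 read 8.62, 8.42 and 8.60, array 6 read 7.38, and the other 3 read 5.93 to 6.25. The other 5 motors were under the filter. Kif11 (Eg5), which pushes spindle poles apart, reached 4.51 in control array 4 and 5.60 in deficient array 4 and stayed at 3.61 or less elsewhere. Kif20a read 4.14 and Kif2c 3.21 in deficient array 4, against control ranges of 2.91 to 3.04 and 2.33 to 2.34. Kif22 reached 3.98 in that array, and Kif4 2.30, hardly above its other values.

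All 6 spindle microtubule factors were tested, and all had higher means in deficient tumours, with a median difference of 0.49, though Stmn1 turned to -0.01 when the arrays were quantile-normalised again. Haus6, a subunit of the augmin complex that makes new microtubules branch from existing ones inside the spindle, was the only member whose groups did not overlap (higher without overlap in 0.323% of all tested probesets). It read 5.47, 5.53 and 5.90 in controls and 5.91, 6.38 and 7.12 in the deficient group. The means were 5.62 ± 0.16 and 6.39 ± 0.38 (SD, n = 7 each), a difference of 0.77 (SE 0.16, 95% interval 0.44 to 1.11) or 1.71-fold. Every deficient array lay above every control, though the lowest deficient array exceeded the highest control by little.

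Haus6 did not pass over all probesets (limma adjusted p = 0.111), and its two-sided exact permutation p of 0.000583 is the smallest that 3432 splits of the arrays can give. Leaving out 1 array at a time gave adjusted p-values from 0.0366 to 0.278, with the lowest when deficient array 6 was left out (difference 0.85). Across tumours its order was its own: deficient array 1 was highest, at 7.12, and deficient array 4 read 6.38, the group median. Without deficient array 4 its difference was still 0.77.

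Of the other spindle factors 4 were highest in deficient array 4. Prc1, the protein that cross-links antiparallel microtubules in the spindle midzone, read 7.04, 7.48 and 7.90 in controls and 7.02, 7.92 and 9.43 in the deficient group (difference 0.50, SE 0.29, limma adjusted p = 0.435). In 4 deficient arrays it lay above every control, and the lowest values of the groups were alike. Nusap1, which binds and stabilises spindle microtubules, differed by 0.61 (SE 0.35, limma adjusted p = 0.443), with deficient array 4 at 7.68 and control array 4 at 6.90. Tpx2, the activator of Aurora A on the spindle, differed by 0.48 (SE 0.40, limma adjusted p = 0.621). Its deficient values ran from 2.99 in array 6 to 5.95 in array 4, a wider spread than the control range of 3.94 to 5.77. Hmmr, a spindle and hyaluronan-binding protein, differed by 0.41 (SE 0.43, limma adjusted p = 0.690), and by 0.13 without deficient array 4. Stathmin (Stmn1), which takes up free tubulin, lay at 11.19 to 11.60 in controls against 11.21 to 11.70 (difference 0.04, SE 0.11, 95% interval -0.20 to 0.27).

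**Figure D5:**
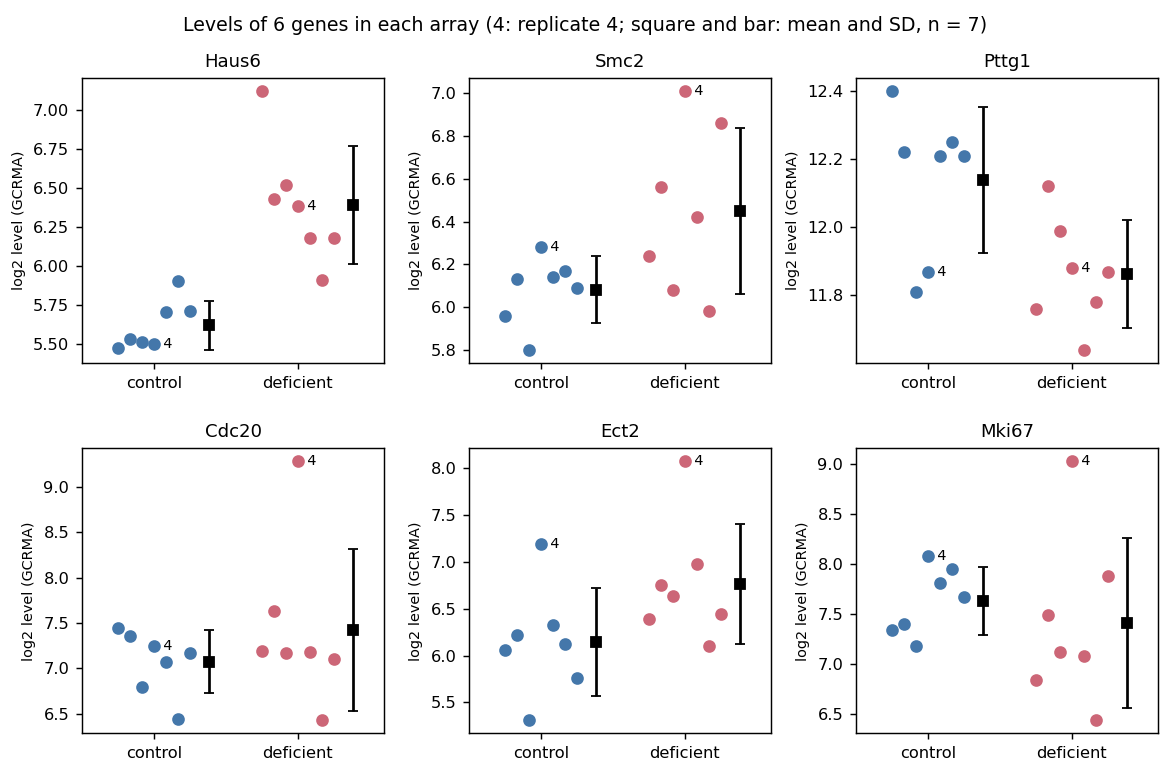
Log2 level in every array (y axis, 1 point per array; the number 4 marks replicate 4; square and bar give the mean and SD, n = 7) of Haus6, Smc2, Pttg1, Cdc20, Ect2 and Mki67 in control and deficient tumours. Haus6 shows separate groups, 3 deficient arrays of Pttg1 lie below every control, and in Smc2, Cdc20, Ect2 and Mki67 deficient array 4 stands above all other points.

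All 3 cytokinesis genes were tested. Ect2 is the exchange factor that activates RhoA at the division plane. It read 5.31, 6.12 and 7.19 in controls and 6.10, 6.63 and 8.07 in the deficient group (difference 0.62, SE 0.30, 95% interval -0.03 to 1.27, limma adjusted p = 0.361). Control array 4 was above every deficient array but array 4. The difference was 0.40 without deficient array 4. Racgap1, the partner of Kif23 in the centralspindlin complex, did not follow Kif23: it differed by 0.14 (SE 0.29, limma adjusted p = 0.855), with deficient array 4 at 6.09 and the other deficient arrays at 4.48 to 4.92. Anillin (Anln), the scaffold of the contractile ring, differed by 0.03 (SE 0.34, limma adjusted p = 0.981), and by -0.24 without that array.

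The chromosome structure genes gave mixed values. The condensin ATPases Smc2 and Smc4, which compact mitotic chromosomes, had higher deficient means. Smc2 read 5.80, 6.13 and 6.28 in controls and 5.98, 6.42 and 7.01 in the deficient group, a difference of 0.37 (SE 0.16, 95% interval 0.03 to 0.70, limma adjusted p = 0.304, two-sided exact permutation p = 0.0373). In 4 deficient arrays it lay above every control. With the leading number as a block the limma unadjusted p was 0.077. Smc4 read 8.34, 8.45 and 8.60 in controls and 8.37, 8.56 and 9.49 in the deficient group, a difference of 0.31 (SE 0.15, 95% interval -0.01 to 0.64, limma adjusted p = 0.359). Its groups overlapped at their lower ends, and arrays 1 and 4 of the deficient group, at 9.05 and 9.49, were the highest.

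The condensin subunit Ncapg, by contrast, differed by only 0.06 (SE 0.25, limma adjusted p = 0.932). Ncapd2, another condensin subunit, was just under the filter, at 3.72 to 4.30 among controls and 3.49 to 5.08 among deficient arrays. Top2a, the topoisomerase that untangles sister chromatids, read 6.55, 6.79 and 7.76 in controls and 5.43, 6.97 and 7.94 in the deficient group (difference -0.19, SE 0.31, limma adjusted p = 0.817). Mki67, whose protein coats mitotic chromosomes and is the standard stain for dividing cells, read 7.18, 7.67 and 8.08 in controls and 6.44, 7.12 and 9.03 in the deficient group. The difference was -0.23 (SE 0.32, limma adjusted p = 0.782) and -0.50 without deficient array 4. In 4 deficient arrays it lay below every control, while array 4 gave the highest value of all 14.

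Some members had further probesets. Of 39 other single-gene probesets of the members, 10 were tested, for 8 genes, and 9 of the 10 had the sign of the gene's main probeset. The exception was Stmn1, at -0.10 against 0.04. The other Cks1b probeset differed by 0.68 (SE 0.36), that of Prc1 by 0.45 (SE 0.29) and those of Smc4 by 0.34 and 0.17. Deficient array 4 was highest in 6 of the 10.

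Other genes of mitosis were read beside the members. A further list of 125 genes of mitotic entry, the anaphase-promoting complex, cohesin, centrosomes, kinetochores and cytokinesis had 62 tested members. Of these 38 had higher and 24 lower means in deficient tumours, with a median difference of 0.03. None passed at an adjusted p under 0.05 by limma, and at an unadjusted p under 0.05, 3 were higher (4.84%, against 8.09% of all tested probesets) and 0 lower (against 6.57%). Deficient array 4 was highest in 14 of 62 (22.6%, against 5.17% of all tested probesets), and its score of 0.31 was the highest of the 14 arrays, the next being 0.17. In deficient array 4, Cdca5, Pbk, Cep55 and Aspm stood 1.96, 1.74, 1.63 and 1.56 above the median of the other deficient arrays. These were chosen after their values were seen, as the largest rises among the tested genes, and do not stand for the whole list. Some untested genes of the list rose as far or further, such as Ccnf by 2.41. Cenpc1, the protein that links centromeric chromatin to the kinetochore, read 5.80 ± 0.18 in controls and 6.19 ± 0.13 in the deficient group (SD, n = 7 each), without overlap, which 0.323% of all tested probesets also showed on the higher side. The difference was 0.38 (SE 0.10, limma adjusted p = 0.134). Kif13a, a kinesin that also has a part in abscission, differed by 0.79 (SE 0.23, limma adjusted p = 0.160), with overlapping groups. On the lower side, Anapc11, the RING subunit of the anaphase-promoting complex, differed by -0.35 (SE 0.21, limma adjusted p = 0.468).

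Genes of S phase, when DNA is copied, were read in the same way. Of 28 tested S phase genes 21 (75%) had higher deficient means, against 52.6% of all tested probesets, with a median difference of 0.07. None passed at an adjusted p under 0.05 by limma, and at an unadjusted p under 0.05, 5 were higher (17.9%, against 8.09% of all tested probesets) and 0 lower (against 6.57%). Deficient array 4 was highest in 7 of 28 (25%, against 5.17% of all tested probesets), and its score of 0.30 lay below that of deficient array 2, at 0.43. Without deficient array 4, 16 of 28 means were higher. At a limma unadjusted p under 0.05, 3 S phase genes were then higher, against 7.02% of all tested probesets. Slbp, the histone mRNA-binding protein, differed by 0.34 (SE 0.11, limma adjusted p = 0.203), and the maintenance DNA methyltransferase Dnmt1 by -0.18 (SE 0.20, limma adjusted p = 0.718).

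Facts of the arrays bear on how these values can be read. Epas1 itself read 4.65, 6.13 and 6.50 in controls and 4.88, 5.75 and 6.38 in the deficient group, a difference of -0.19 (SE 0.30, limma adjusted p = 0.807), so its probeset does not separate the groups; the sources used here do not say whether it lies in the part that was lost. Array medians lay at 5.19 to 5.29 among controls against 5.12 to 5.20. The labels hold an array number that is lower in every deficient than in every control array, so its order and the group cannot be told apart. They also hold a leading number, 6 in all, none of which covers both groups. Control array 1, which shares its leading number with control array 4, had a score of -0.17, and deficient array 7, which shares its own with deficient array 4, had -0.06. Where that number was a random block (correlation 0.349), the Haus6 difference was 0.80 (limma adjusted p = 0.989).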

How the data were processed

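RNA of 14 tumours, isolated by Trizol, was read on Affymetrix arrays, per the labels' protocols. The deposited log2 values are GCRMA output of the authors, as the submitters' processing notes say, and the sources used here name no version. GCRMA removes an estimated background, so dim probesets pile up at a floor: 43.9% of values lay under 4, and a member near the floor has only a bound. The number of arrays limits the precision of every probeset alike. With the same arrays, the median SE of a difference was 0.31 for tested members and 0.18 for all tested probesets.

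The fit used limma 3.58.1 under R 4.3.3 (lmFit, eBayes, two-sided, 1 group term) on probesets that were not controls and read above 4 in at least 7 of 14 arrays, with Benjamini-Hochberg adjustment over all 12701. The procedure was tested on simulated data. Exact permutation p-values for single genes cover all 3432 splits. Gene names came from the platform annotation, which can be old, and 20380 of 22690 probesets had 1 gene. All members are named, and of the further mitotic list, the S phase list and the marker lists a few genes by p or level. The members and lists were chosen with earlier results of these data known. Motifs were searched on both strands of RefSeq promoter windows. Same-numbered arrays of the groups shared only a number: their correlations ran from -0.226 to 0.223. Alternatives covered the filter, the normalisation, the variance model, array weights, the leading number, the replicate number, the choice of probeset and arrays left out; leaving out both arrays numbered 4 was added after seeing the data.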

Additional observations from a re-analysis of the deposited data

Results flagged for a closer look

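Within a group of 7 arrays, the highest or lowest value was set against its nearest neighbour relative to the group's whole range. Of 58 such tests over the 29 members, 11 stood apart, where chance gives about 1 in 20, or 2.9. Since the members move together across arrays, these are not 11 independent events: 6 came from control array 4, 4 from deficient array 4 and 1 from deficient array 6.

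In control array 4, Cdk1 read 9.28 (next control 8.03), Cdca3 7.15 (next 6.26), Mad2l1 7.55 (next 6.21), Cenpa 5.38 (next 4.67), Tpx2 5.77 (next 4.52) and Nusap1 6.90 (next 5.69). In deficient array 4, Ccnb2 read 6.93 (next deficient array 5.53), Cdc20 9.28 (next 7.63), Prc1 9.43 (next 8.03) and Racgap1 6.09 (next 4.92). In deficient array 6, Tpx2 read 2.99, and the next lowest deficient value was 4.70. Beside these values, control array 4 had the lowest summed marker level of the controls in 8 of 11 lists. They were neutrophil 24.5, endothelial 74.5, fibroblast 86.3, macrophage 92.4, T lymphocyte 26.1, B and plasma cell 30.7, erythroid 6.46 and alveolar type II 113, which was lowest by little. All erythroid markers lay near the floor in every array, so that sum is no reading of a cell type. Some neutrophil, fibroblast, T lymphocyte and B and plasma cell markers were near the floor too. Deficient array 4 ranked between 5 and 10 of 14 over the 11 marker lists. The part of these in the members' values was not tested.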

How the results depend on the processing

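The median difference of the members stayed above 0 under every alternative run, from 0.13 to 0.49, and from 0.09 to 0.35 with 1 array left out. The Epas1 difference stayed below 0 and uncalled, from -0.45 to -0.05, and from -0.39 to -0.06 with 1 array left out. The count of members past an adjusted p of 0.05 was 0 in all but 2 settings. It was 4 with array weights (Cks1b, Kif23, Haus6 and Smc2), a setting that called 1900 of all probesets and weighted arrays from 0.277 to 4.15. Of the further mitotic list, Cenpc1, Kif13a and Zwilch also passed in that setting. Without deficient replicate 6 the count of members was 1 (Haus6), for a range of 0 to 1 over arrays left out.

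At an unadjusted p under 0.05, the members higher in deficient tumours numbered 2, and 1 with a filter above 6, with the leading number as a block or averaged, or without deficient 4 and 7, 7 without deficient 3 and 6, and 11 with array weights. Leaving out 1 array gave 1 to 7. It was 7 without deficient 6, against 904 of all 12701 tested probesets, and 1 without deficient 4, against 892. Members lower numbered 1, and 0 with the leading number as a block or averaged, with the mean of a gene's probesets or with the probeset of largest SD, and 0 to 2 with 1 array left out. With the replicate number as a block, 6 members were higher and 0 lower. Genes of the further mitotic list that were higher numbered 3, then 6 with no filter, 9 with array weights, 1 averaged over the leading number, 5 without deficient 3 and 6 and 5 with the probeset of largest SD, and 3 to 6 with 1 array left out. For the remaining settings no share over all tested probesets stands beside these counts, and that share changes with the setting. Such counts alone do not show an excess over it. The cause was not tested.

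Differences that turned sign under an alternative were as large as 0.26 with all 14 arrays (Ccnb2), level with the members' median difference of 0.26. With array weights Cdk1 read 0.37, Cdca3 0.11, Top2a 0.14, Mki67 0.07 and Pds5a 0.01. Without deficient 3 and 6 Cdk1 read 0.03, Cdca3 0.25, Top2a 0.04 and Mki67 0.03. Without deficient 4 and 7 Birc5 read -0.14, Ube2c -0.32, Racgap1 -0.06, Anln -0.12 and Ncapg -0.04. Averaged over the leading number Ube2c read -0.08 and Racgap1 -0.02. Without both arrays numbered 4, Anln read -0.20 and Ncapg -0.01. Cdk1 read 0.00 with arrays centred on the median, and Stmn1 -0.01 when quantile-normalised again, -0.03 as the mean of its probesets and -0.10 with the probeset of largest SD. With 1 array left out, the ranges of genes that turned sign were Cdk1 -0.27 to 0.22, Ccnb2 -0.01 to 0.38, Ccna2 -0.01 to 0.38, Cdca3 -0.47 to 0.19, Birc5 -0.05 to 0.31, Ube2c -0.19 to 0.34, Stmn1 0.00 to 0.08, Racgap1 -0.07 to 0.33, Anln -0.24 to 0.18, Top2a -0.38 to 0.04 and Ncapg -0.10 to 0.24.

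Of the 16 untested members 8 read above 4 in no array, so their group differences depend on the floor. The other 8 read above 4 in 1 to 4 arrays, and with no filter 0 members passed.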
